A study of Mus musculus with 9 samples.

Results

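The genes described here encode the light-signalling cascade of cone photoreceptors, the cells of daylight and colour vision. The 9 genes are Opn1sw, Opn1mw, Arr3, Gnat2, Gnb3, Gngt2, Pde6c, Pde6h and Cngb3. They were taken by symbol from the deposited tables, which list all 9 among 16367 genes of the sorted cells and 7 among 17035 genes of the cultures. Pde6c and Cngb3 are not listed in the culture table. RNA was sequenced from wild-type mouse retinas in 9 libraries. In the sham group (3 libraries) the cornea was cut and no oil was given, and in the ocular hypertension group (OHT, 3 libraries) 1.2 µL of silicone oil was placed in the front chamber of both eyes to raise the pressure chronically and mildly. For both groups 4 neural retinas were pooled per sample, dissociated with papain, depleted of dead cells and captured on magnetic columns through an antibody to GLAST, a glutamate transporter of Müller glia and astrocytes. The age of these animals is not given in the sources used here. The remaining 3 libraries came from untreated Müller glia grown in serum from C57BL/6J pups of postnatal days 8 to 10 and passaged once confluent. Library depth was 37.8 M to 44.5 M reads (M, 1000000) in sham, 47.1 M to 53.6 M in OHT and 66.3 M to 76.7 M in the cultures. The labels do not say whether the 3 libraries of a group are independent beyond the pooling, so p-values measure only the spread between these libraries.

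Cone phototransduction starts when light activates a cone opsin. The opsin switches on the G protein transducin, whose cone subunits are Gnat2, Gnb3 and Gngt2. Transducin lifts the inhibition that Pde6h exerts on the phosphodiesterase Pde6c, cyclic GMP falls, and the channel formed by Cnga3 and Cngb3 closes. Arr3, the cone arrestin, then binds the active opsin and ends its signal. Rods use a parallel set of proteins from related genes and are far more numerous in the mouse retina. Gnb3 is known from ON bipolar cells as well, and Gngt2 from cells of the monocyte and macrophage lineage.

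Some marker values bear on every level given below. The sorted libraries held 27052 to 43604 ppm (reads per 1000000 reads of the library) of a list of 18 microglia genes, against 2585 to 12308 ppm of a list of 14 genes of Müller glia, the labelled cell type. The lists differ in length and in the level of their genes, so these sums are not proportions of cells. In OHT against sham, the log2 difference was below 0 for all 14 Müller glia genes (median -0.86, 1 at an unadjusted p under 0.05) and for all 6 genes of an astrocyte list (median -1.72, 2 at that level), against 54.8% of all genes. None of them passed the adjusted threshold in limma, and their part in the cone values was not tested. Rod markers split the libraries: 9298 and 8549 ppm in sham replicates 2 and 3 for a list of 13 genes, and 533 to 2126 ppm in sham replicate 1 and the OHT libraries. The summed level of 14 bipolar cell markers was 434 ppm in OHT replicate 3 against 76.9 to 193 ppm in the other sorted libraries. Of these genes 9 were highest in OHT replicate 3 and 5 in a sham library. Among the OHT libraries alone, that replicate was also highest for the rod list (608, 533 and 2126 ppm in replicates 1 to 3). So it was for the Müller glia list (2585, 2803 and 5616 ppm) and the astrocyte list (282, 279 and 609 ppm). The microglia list was lowest there (43305, 41838 and 33392 ppm), and the monocyte and macrophage list given below was highest in replicate 1. The share of all genes highest in OHT replicate 3 was not computed. In that library the 20 highest genes held 17.2% of the total, against 24% to 32.1% in the other sorted libraries. Counts of genes highest there therefore do not separate a trait of the genes from one of the library. In such bulk RNA, fewer cells of a type and less RNA per cell cannot be told apart.

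The start regions of 4 members are shown because these genes varied between libraries in partly shared ways, described below, and because 3 of them hold a letter pattern known from photoreceptor genes. RefSeq start windows on GRCm38.p6 were at hand for Opn1sw, Opn1mw, Arr3, Gnat2 and Pde6h. Those of Gngt2, Gnb3, Pde6c and Cngb3 were not. The submitters' processing notes name mm39, so the coordinates belong to the sequence table and not to the counts. The 250 bases before each start were searched on both strands for TAATCC and TAATCT, forms of the site bound by the photoreceptor factor CRX, and for AGGAAGT, a form of the site bound by the myeloid factor PU.1. TAATCT was chosen after the letters had been seen. Capitals mark the matches, none of which overlapped another, and each line runs 5′ to 3′ along the gene. The first 3 lines end 3 bases before the start and lie at chrX:100605377-100605494 (plus strand), chrX:74127346-74127463 (plus strand) and chr6:29380516-29380633 (minus strand). The fourth shows only the bases around the match, at chr3:108093038-108093061 (plus strand).
Arr3: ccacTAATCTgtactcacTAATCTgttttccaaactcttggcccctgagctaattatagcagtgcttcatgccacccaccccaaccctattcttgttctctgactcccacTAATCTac
Opn1mw: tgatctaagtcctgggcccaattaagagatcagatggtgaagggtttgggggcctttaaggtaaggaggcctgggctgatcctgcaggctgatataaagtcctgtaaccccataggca
Opn1sw: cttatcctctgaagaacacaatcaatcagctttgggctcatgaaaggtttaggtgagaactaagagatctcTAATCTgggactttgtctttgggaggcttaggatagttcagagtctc
Gnat2: acaatccccGGATTAggaaggagc
TAATCC was found in 1 of the 5 windows (Gnat2, on the reverse strand) and in 6.25% of all 32851 windows of that length. TAATCT was found in 2 of 5 (Arr3, with 3 matches, and Opn1sw) and in 7.31% of all windows. AGGAAGT was found in 0 of 5 and in 7.69% of all windows. A match is a description of the letters, not a measured binding site.

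The main comparison asked whether raised eye pressure was accompanied by a different level of these genes in the sorted cells. With limma on log2(normalised count + 1) and Benjamini-Hochberg adjustment over 14403 genes with a mean of at least 10, 0 of the 9 members passed an adjusted p of 0.05, as did 0% of all genes tested. At an unadjusted p under 0.05 there was 1 member, Gngt2, against 11.7% of all genes, and against 5.37% of all genes for a higher level in OHT. edgeR called 0 members and 0% of all genes, and DESeq2 called 0 members and 1.74% of all genes. All 9 members passed the filter on low values. Their median log2 difference was -0.21, with 3 above 0 and 6 below, against a median of -0.12 over all genes, of which 45.2% were above 0. Groups without overlap were found for 1 of 9 members, again Gngt2, against 9.26% of all genes for a higher and 9.18% for a lower level in OHT.

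**Figure D1:**
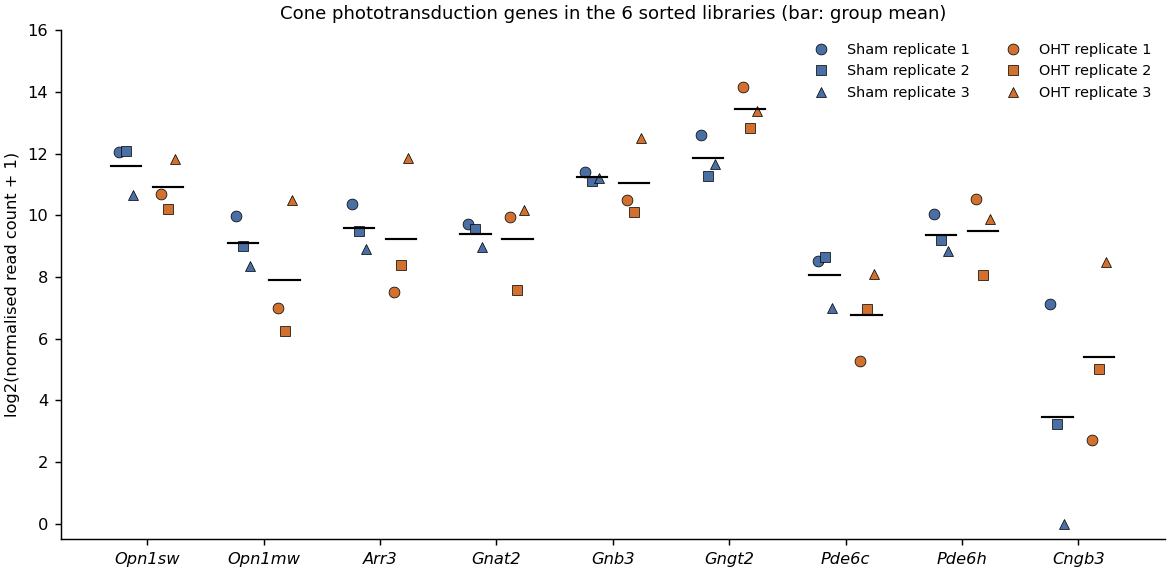
Normalised read counts of the 9 cone genes on a log2(count + 1) axis, 1 point per sorted library, with sham in blue, OHT in orange, the replicate shown by the marker and a bar at each group mean. Gngt2 is the gene whose groups do not overlap, and OHT replicate 3 (orange triangle) is the highest library for 5 of the 9 genes. The share of all genes highest in that library was not computed.

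The 2 cone opsins differed in how much they varied between libraries. Opn1sw, the short-wavelength opsin, was at 4254, 4336 and 1616 normalised counts in sham replicates 1 to 3 and at 1655, 1168 and 3641 in OHT replicates 1 to 3. The groups overlapped, and sham replicate 3 lay with OHT replicates 1 and 2. Its log2 difference, OHT minus sham, was -0.69, with an SE of 0.52 (adjusted p 0.584 in limma). Opn1mw, the middle-wavelength opsin, was at 1001, 514 and 326 in sham and at 126, 74.9 and 1445 in OHT. OHT replicate 3 was the highest of the 6 libraries and the other OHT libraries were the lowest. Its log2 difference of -1.20, with an SE of 0.99 (adjusted p 0.615 in limma), became -2.49 without OHT replicate 3 and -0.37 without OHT replicate 2. It was -0.20 in edgeR, -0.16 in DESeq2 and -0.69 after quantile normalization. Most mouse cones carry both opsins in differing proportions along the retina. Opn1mw amounted to 11.8% to 23.5% of the Opn1sw count in sham, and to 7.60%, 6.41% and 39.7% in OHT replicates 1 to 3, so that the proportion ranged 6.19-fold across the sorted libraries. These proportions are of counts not divided by length and serve only to follow 1 pair across libraries. Opn1sw shares 15.5% of its exonic bases with Calu on the opposite strand, as described below, and Opn1mw shares none. Whether Calu reads entered the Opn1sw counts, and so its spread, was not tested.

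Arr3, the cone arrestin, was like Opn1mw highest in OHT replicate 3 and lower in the other OHT libraries than in any sham library. It was at 1311, 710 and 478 normalised counts in sham and at 180, 333 and 3682 in OHT. The lowest library was OHT replicate 1 for Arr3 and OHT replicate 2 for Opn1mw. In sham the Arr3 count was 131% to 147% of the Opn1mw count, a nearly fixed proportion, and in OHT it ranged 3.10-fold, from 143% to 444%. Its log2 difference was -0.34, with an SE of 0.94 (adjusted p 0.889 in limma). That direction did not hold: it was 0.71 in edgeR and 0.75 in DESeq2, and ran from -1.64 without OHT replicate 3 to 0.54 without OHT replicate 1.

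Of the transducin subunits, the alpha and beta chains differed little on average and the gamma chain differed most. Gnat2, the cone alpha subunit, was at 831, 743 and 503 normalised counts in sham and at 977, 189 and 1149 in OHT. The OHT libraries lay on both sides of sham, and the difference in log2 was -0.18, with an SE of 0.68 (adjusted p 0.918 in limma). It was 0.08 in edgeR and 0.16 in DESeq2, and ran from -0.65 without OHT replicate 3 to 0.64 without OHT replicate 2. Gnb3, the beta subunit of cones and ON bipolar cells, was at 2703, 2231 and 2340 in sham and at 1441, 1095 and 5787 in OHT. The sham libraries agreed within 1.21-fold while the OHT libraries ranged 5.29-fold. Its log2 difference was -0.21, with an SE of 0.55 (adjusted p 0.883 in limma). It was 0.14 in edgeR and 0.20 in DESeq2, with -0.94 without OHT replicate 3 and 0.26 without OHT replicate 2. For 8 of the 9 members the log2 range was larger within OHT than within sham, as it was for 74.3% of all genes.

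Gngt2, the cone gamma subunit, was at 6190, 2460 and 3249 normalised counts in sham and at 18463, 7296 and 10593 in OHT (3967 ± 1966 and 12117 ± 5737, SD, n = 3 each). Every OHT library lay above every sham library. As a share of library reads the values were 158, 62.5 and 76.4 ppm in sham and 281, 165 and 280.4 ppm in OHT, also without overlap. The log2 difference was 1.62 (SE 0.44, 95% interval 0.65 to 2.58), with an unadjusted limma p of 0.00350 and an adjusted p of 0.332. Over 15 alternatives the direction was the same and the adjusted p ran from 0.0558 in DESeq2 to 0.906 without sham replicate 2. Gngt2 made up 34.7%, 20.5% and 35.7% of the summed ppm of all 9 members in sham and 75.8%, 69.0% and 38.0% in OHT. That sum was 325 ± 123 ppm in sham and 449 ± 258 ppm in OHT. Without Gngt2 it was 226 ± 81.6 and 207 ± 217 ppm (SD, n = 3 each), so the order of the group means depended on this gene.

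**Figure D2:**
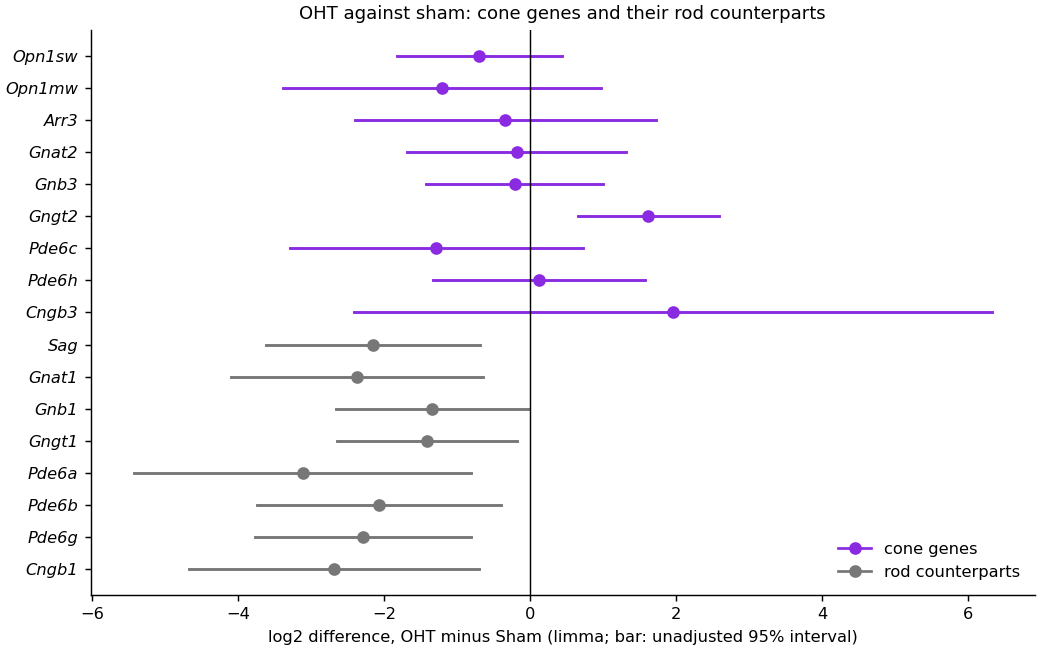
Log2 difference, OHT minus sham, from the limma fit over all genes, with unadjusted 95% intervals, for the 9 cone genes (purple) and 8 rod counterparts (grey). Gngt2 is the cone gene whose interval lies above 0 (0.65 to 2.58), and the rod genes all have negative values.

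The effector enzyme and its inhibitor moved apart in some libraries. Pde6c, the catalytic cone phosphodiesterase, was at 363, 396 and 127 normalised counts in sham and at 37.3, 123 and 271 in OHT. OHT replicates 1 and 2 were the lowest libraries and OHT replicate 3 lay within sham (a difference of -1.28 in log2, with an SE of 0.91 and an adjusted p of 0.569 in limma, and of -0.50 after quantile normalization). Pde6h, the inhibitory gamma subunit of that enzyme, was at 1049, 591 and 455 in sham and at 1481, 263 and 942 in OHT. OHT replicate 1, the lowest library for Pde6c, was the highest for Pde6h. The deposited scaling raises that library: in ppm, Pde6h in OHT replicate 1 (22.5) was below sham replicate 1 (26.8) and OHT replicate 3 (24.9). For Pde6h the log2 difference was 0.13, with an SE of 0.66 (adjusted p 0.942 in limma), and turned to -0.40 without OHT replicate 1. It was 0.28 in edgeR and 0.36 in DESeq2.

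The channel genes had few reads. Cngb3, the modulatory subunit, was at 138, 8.30 and 0 normalised counts in sham and at 5.53, 31.3 and 358 in OHT. Sham replicate 1 and OHT replicate 3 held most of its reads, and the count of 0 in sham replicate 3 allows up to 0.0675 ppm by counting error alone. Its log2 difference of 1.96, with an SE of 1.99 (adjusted p 0.688 in limma), was 0.23 without sham replicate 3, 3.79 without sham replicate 1 and 1.04 with a pseudocount of 10. Cnga3, its pore-forming partner, was at 10.3 in sham replicate 1, from 10 reads, and had 2 reads each in OHT replicates 1 and 3 and 0 in the other sorted libraries, so it was under the filter.

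Other genes of cones were read from a list of 7. Of these, 5 passed the filter and 0 the adjusted threshold in limma (0 at an unadjusted p under 0.05 as well), with a median log2 difference of -1.29. Cnga3 was too low and Clul1 was not listed. Thrb, the thyroid hormone receptor needed for middle-wavelength opsin, was at 369, 684 and 363 in sham and at 102, 118 and 510 in OHT. Ccdc136 was at 385, 301 and 370 in sham and at 66.3, 32.9 and 711 in OHT. Kcne2, a potassium channel subunit, was at 228, 75.6 and 111 in sham and at 60.8, 30.5 and 351 in OHT. These 3 genes and Slc24a2, the cone calcium exchanger (78.5, 108 and 201 in sham, and 31.8, 2.47 and 208 in OHT), were lower in OHT replicates 1 and 2 than in any sham library. The share of all genes with that order was not computed, so it is not read as a trait of these genes. Rxrg, the partner receptor of Thrb, was at 200.4, 131 and 469 in sham and 1034, 239 and 467 in OHT (a difference of 1.07 in log2, with an SE of 0.74 and an adjusted p of 0.560 in limma). The summed level of the 6 listed genes was 32.6 to 35.6 ppm in sham and 19.7, 9.59 and 59.5 ppm in OHT replicates 1 to 3.

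Without OHT replicate 3, 7 of 9 members had a negative log2 difference, against 6 of 9 with it, while 48.6% of all genes were above 0. The 2 exceptions were Gngt2 (1.66) and Cngb3 (0.41). No member passed the adjusted threshold in that limma fit, in which 0 of 14372 genes passed. Its unadjusted limma p was under 0.05 for Gngt2 (0.00633), Opn1mw (0.00738), Arr3 (0.0277), Gnb3 (0.0309) and Opn1sw (0.0381). The same held for 2092 of the 14372 genes. Of the members named, only Gngt2 was higher in OHT. The sum of the bipolar markers given above was highest in OHT replicate 3. Among the OHT libraries alone, the rod, Müller glia and astrocyte sums were highest there too. Trpm1, the channel of ON bipolar cells, was at 3284 normalised counts there against 341 to 963 in the other sorted libraries, whereas Prkca, their protein kinase, was at 893.5 there against 1236 in sham replicate 3. Their part in the cone values was not tested.

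Gngt2 was then set against microglia genes, a list that was planned beforehand as a comparison for every member. Over the 6 sorted libraries its Pearson r of log2 values with the 7 other members of mean 100 or more ran from -0.62 (Pde6c) to 0.54 (Pde6h), with a median of -0.12. With the 17 microglia genes listed it ran from -0.19 (Tmem119) to 0.99 (Aif1), with a median of 0.52, and 3 genes, Aif1, Tyrobp and Trem2, had an r of at least 0.95. The share of all genes with such an r was not computed. With 13 bipolar genes the r of Gngt2 ran from -0.76 (Prkca) to 0.92 (Gng13), with a median of 0.27. Even that 0.92 was only in place 730 of 11511 genes. Aif1, which encodes the microglia and macrophage protein IBA1, was at 27908, 10954 and 19945 normalised counts in sham and at 77103, 34905 and 47638 in OHT. Gngt2 amounted to 22.2%, 22.5% and 16.3% of Aif1 in sham and to 23.9%, 20.9% and 22.2% in OHT. That proportion ranged 1.47-fold across libraries in which Gngt2 itself ranged 7.50-fold in normalised counts and 4.49-fold in ppm. The pair was chosen after its values were seen. Against Tmem119, a marker of resident microglia, the proportion ranged 13.2-fold, and against Arr3 35.7-fold.

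The microglia list did not move as a whole with Gngt2. Of its 18 genes 17 were kept, 14 of them above 0, with a median log2 difference of 0.16 and 0 past the adjusted threshold in limma (3 at an unadjusted p under 0.05, all higher in OHT, against 5.37% of all genes). Groups without overlap, higher in OHT, were found for 5 of the 17, against 9.26% of all genes. Tmem119 (-0.46), Cx3cr1 (0.05) and P2ry12 (0.02), genes of resting microglia, differed little, while Aif1 (1.47) and C1qa (0.79) were among the higher ones. The summed list was 43604, 30455 and 27052 ppm in sham and 43305, 41838 and 33392 ppm in OHT. With the mean log2 value of the list Gngt2 had a Pearson r of 0.77 (exact permutation p 0.0833, adjusted p 0.388) and a Spearman coefficient of 0.71 (exact permutation p 0.136, adjusted p 0.675; n = 6, two-sided). Without sham replicate 3 and OHT replicate 1, the libraries farthest from the median of the list, r was 0.36. Leaving out the extremes narrows the range of the list, so a lower r can follow from that alone. After quantile normalization r was 0.30 over all 6 libraries. Of 13 markers of monocytes and border macrophages 7 had a positive and 6 a negative log2 difference, with a median of 0.11. Their sum was 554, 578 and 1098 ppm in sham and 2119, 1167 and 1911 ppm in OHT, and the separation of these sums rested on Ms4a7, a macrophage gene singled out after its values were seen (125, 117 and 519 ppm in sham, and 1474, 871 and 928 ppm in OHT). Without it the sums were 429, 461 and 579 ppm in sham and 645, 295.5 and 983 ppm in OHT, with overlap. How much of the Gngt2 reads came from either kind of cell was not tested.

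**Figure D3:**
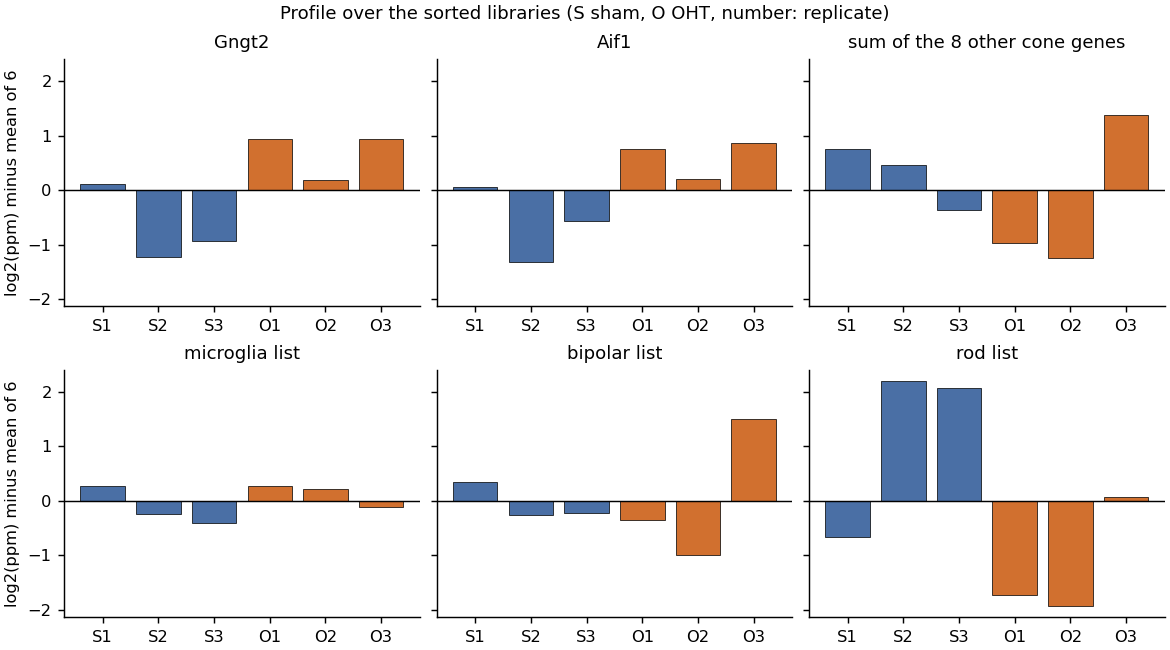
Log2(ppm) minus its mean over the 6 sorted libraries for Gngt2, Aif1, the sum of the 8 other cone genes, and the summed microglia, bipolar and rod lists (S1 to S3 sham, O1 to O3 OHT, the number being the replicate). The bars of Gngt2 and Aif1 have nearly the same heights. The other cone genes share with the bipolar list a peak in OHT replicate 3, and the rod list peaks in sham replicates 2 and 3. Among the OHT libraries alone the rod list is highest in replicate 3 too, and the microglia list is lowest there.

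In all, 27 relations between the 9 members and the mean log2 values of the microglia, rod and bipolar lists were computed, and 0 had an adjusted exact permutation p under 0.05 (smallest 0.281). Gnb3 and the bipolar list had a Pearson r of 0.94 (exact permutation p 0.0139, adjusted p 0.281) and a Spearman coefficient of 0.83 (exact permutation p 0.0583, adjusted p 0.675; n = 6, two-sided). Without OHT replicates 2 and 3, the extremes of that list, the r was 0.47, which the narrower range alone can lower. After quantile normalization the r of Gnb3 was 0.65 over all 6. For Arr3 and Opn1mw the r with the bipolar list was 0.84 (exact permutation p 0.0403) and 0.86 (0.0208), with an adjusted p of 0.347 and 0.281 and an r of 0.60 and 0.62 without the same libraries. The Spearman coefficient was 0.60 (exact permutation p 0.242) for Arr3 and 0.77 (0.103) for Opn1mw. With the rod list the pooled r ran from -0.82 for Gngt2 (exact permutation p 0.0514, adjusted p 0.347) to 0.45 for Pde6c. The rod list puts the libraries in separate clusters, so a pooled r with it mixes differences between and within clusters. Without sham replicates 2 and 3, farthest from the median of that list, r was 1.00 for Gnb3, 0.96 for Opn1mw and 0.95 for Arr3. It was 0.42 for Pde6h and -0.13 for Gngt2, and so few libraries cannot decide which list a member follows.

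Genes closest to each member in profile were ranked by Pearson r over the 6 sorted libraries among 11511 named genes with a mean of at least 100. For Gngt2 they were Clec5a, a C-type lectin receptor of myeloid cells (r = 0.997), then Ngdn, Anapc11, Rgs2 and Sec11c (0.995 each), with Aif1 in place 45. For Arr3 the closest was Gnao1 (0.995), a G protein of ON bipolar cells among other neurons, for Opn1mw Plekha5 (0.995), and for Gnat2 Lyve1 (0.988), a gene of border macrophages and lymphatic vessels. For Gnb3 it was Sbsn (0.988), for Opn1sw Itih5 (0.9746), for Pde6c Ice1 (0.995), for Pde6h Peli2 (0.993) and for Cngb3 Gpatch4 (0.991). Among so many genes and so few libraries every member had such a partner, so these names describe the 6 libraries only.

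The rod counterparts of the cascade were read from the same fit, and no test compared them with the members. The 8 rod genes paired here with a member all had a negative log2 difference, from -3.12 for Pde6a, a catalytic subunit of the rod phosphodiesterase, to -1.34 for Gnb1, a beta subunit that most cells express. None passed the adjusted threshold in limma, with adjusted p-values of 0.332 to 0.422. Sag, the rod arrestin, was at 10865, 73312 and 69688 normalised counts in sham and at 8025, 5142 and 15281 in OHT. Sham replicate 1 lay with the OHT libraries for Sag, whereas for Opn1mw and Arr3 it was the highest sham library. Genes used by both photoreceptor types followed the rod pattern: of 19 such genes 19 were kept and 19 were below 0, 17 of them at an unadjusted p under 0.05 and 0 at an adjusted p under 0.05 in limma, with a median log2 difference of -2.46. Over all genes 54.8% were below 0 and 6.3% were lower at an unadjusted p under 0.05. Crx, the factor named above for its binding site, was at 655, 3310 and 4690 in sham and at 569, 333 and 722 in OHT.

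The ratio of a cone gene to its rod counterpart within a library is free of library scaling. For Arr3 over Sag the log2 ratio was -3.05, -6.69 and -7.19 in sham and -5.48, -3.95 and -2.05 in OHT. For Gnat2 over Gnat1 it was -4.37, -7.76 and -8.26 in sham and -3.41, -5.56 and -4.87 in OHT. In both pairs sham replicate 1 fell among the OHT libraries, so the groups overlapped. For Gngt2 over Gngt1, the rod gamma subunit, it was 0.55, -1.68 and -1.96 in sham and 1.79, 2.66 and 1.56 in OHT, without overlap. Gngt1 was lower in OHT by the log2 difference (-1.42, with an SE of 0.56 and an adjusted p of 0.385 in limma), so both genes of the pair enter that ratio. No test of the ratios was made.

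**Figure D4:**
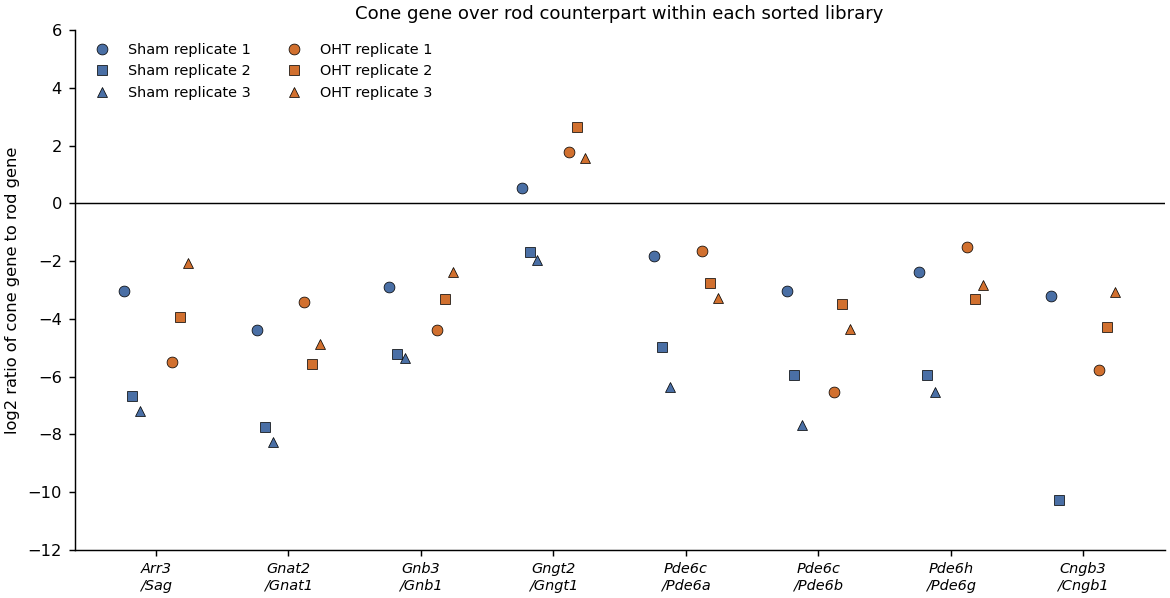
Log2 ratio of 7 cone genes to their rod counterparts (2 for Pde6c) within each sorted library, with sham in blue, OHT in orange and the replicate shown by the marker. Sham replicate 3 has 0 reads of Cngb3 and no point there. Sham replicates 2 and 3 are the lowest libraries in most pairs, and the Gngt2 to Gngt1 ratio stands above the others, with all 3 OHT libraries above all sham libraries.

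Members that share exons with a neighbour need a further measurement, because the template-switching kit does not mark the strand and how the authors counted overlapping genes is not given in the sources used here. In the GENCODE M21 annotation 3 members overlap exons of a gene on the opposite strand. Gngt2 shares 234 of its 1877 exonic bases (12.5%) with Abi3, a gene of microglia and other myeloid cells. Abi3 was at 17352, 10223 and 9520 normalised counts in sham and at 13129, 15869 and 8085 in OHT, with a log2 difference of 0.00, and its r with Gngt2 was 0.21 over the 6 libraries. Gngt2 amounted to 24.1% to 35.7% of Abi3 in sham and to 46.0% to 141% in OHT. Pde6h shares 136 of 7846 exonic bases (1.73%) with Arhgdib, a gene of blood-derived and myeloid cells that was at 18740 to 47898 in the sorted libraries. Opn1sw shares 397 of 2557 (15.5%) with Calu, a widely expressed calcium-binding protein of the secretory pathway, at 2993 to 4863. Opn1mw, Arr3, Gnat2, Gnb3, Pde6c and Cngb3 share none.

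In the cultures the 7 listed cone genes were lower than in any sorted library, and Arr3 and Opn1mw were at or near the limit of detection. Levels are in ppm, since the tables were scaled separately, and no test was made between them. The 7 listed members summed to 3.57, 3.28 and 3.75 ppm in culture replicates 1 to 3, against 214 to 738 ppm for all 9 in the sorted libraries. Opn1sw was at 1.02, 1.39 and 2.18 ppm, from 68, 105 and 167 reads. Gnat2 was at 1.30, 0.846 and 0.612 ppm and Pde6h at 0.905, 0.529 and 0.391 ppm. Opn1sw and Pde6h are the members that overlap genes of high level in culture: Calu was at 1254, 1066 and 876 ppm there, and Arhgdib at 237, 215 and 239 ppm. What part of the Opn1sw and Pde6h reads came from these neighbours was not tested.

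Gnb3 was at 0.0905, 0.278 and 0.378 ppm in the cultures, Gngt2 at 0.106, 0.225 and 0.182 ppm (7, 17 and 14 reads), Opn1mw at 0.121, 0.0132 and 0 ppm and Arr3 at 0.0302, 0 and 0.0130 ppm. With 2 reads or fewer per culture, Arr3 was at or below the limit of 0.0391 to 0.0452 ppm that a count of 0 allows. Levels of the microglia genes Aif1 (0.0603, 0.132 and 0.234 ppm) and P2ry12 (0.151, 0.0397 and 0.0261 ppm) were also low there, and 12 of the 16 microglia genes listed in culture were above Gngt2 in each culture. Among these, Tyrobp was at 1.52, 1.96 and 2.77 ppm, Trem2 at 0.769, 1.15 and 1.43 ppm and Tmem119 at 44.9, 57.3 and 76.8 ppm. Tyrobp, Trem2 and Tmem119 were above Gngt2 in every sorted library too, so the count compares levels only. Gngt2 amounted to 175%, 170% and 77.8% of Aif1 in the cultures, from 4, 10 and 18 reads of Aif1. In the sorted libraries that proportion was 16.3% to 23.9%.

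**Figure D5:**
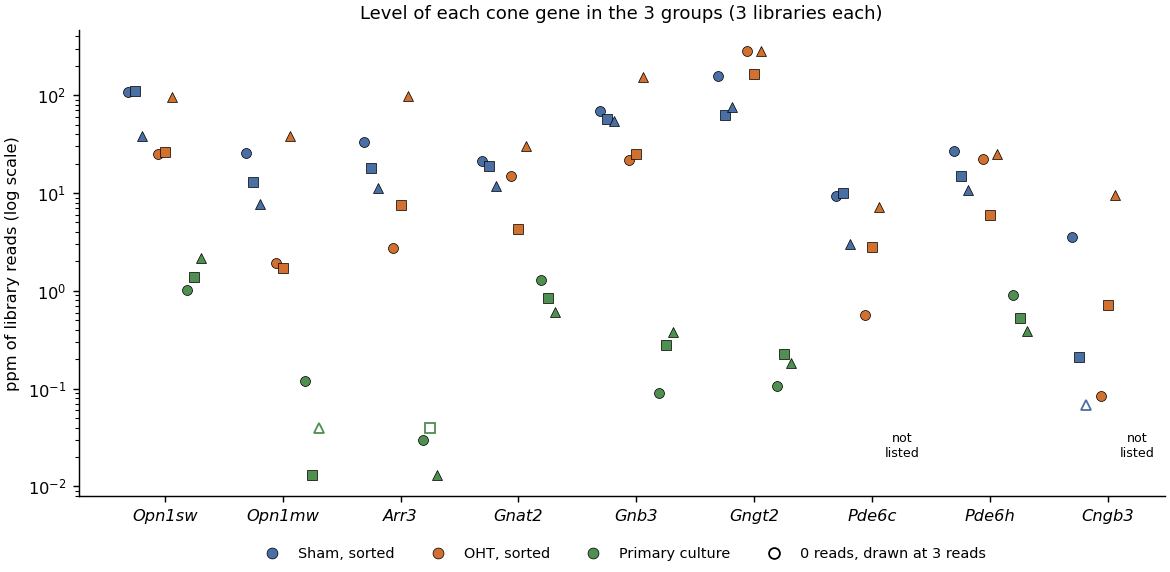
Level of each cone gene in ppm of library reads on a log axis, for sham (blue), OHT (orange) and primary cultures (green), 3 libraries each, with the replicate shown by the marker. Open symbols are libraries with 0 reads, drawn at the level of 3 reads, and each listed gene is lower in all 3 cultures than in any sorted library.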

How the data were processed

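RNA-seq of 9 libraries was analysed from the 2 tables the authors deposited, whose values are a normalised read signal per gene and library. Per the submitters' processing notes, the tools included bcl2fastq 2.20, Trim Galore 0.6.6, FastQC 0.11.9 and STAR 2.7.1a, and the build mm39. For the counting program, the annotation and the scaling method, nothing is stated: not given in the sources used here. Dividing each deposited signal column by its smallest value above 0 gave whole reads for 100% of values (tolerance 0.05), except that culture replicate 3 has a step too near 1 to be a check. Reads and ppm cover counting error only, since amplified reads carry no molecular identifiers.

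The labels gave each library's group and number. OHT was compared with sham by limma 3.58.1 (R 4.3.3, eBayes with trend) on log2(value + 1) in genes with a mean of at least 10, with Benjamini-Hochberg adjustment at 0.05. edgeR 4.0.16 and DESeq2 1.42.0 on recovered reads, other pseudocounts, filters and scalings, a replicate block and leaving out each library were alternatives. The limma script was tested on simulated data. Correlations were tested by exact permutation of all 720 pairings (Python 3.11.15, scipy 1.17.1).

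All members were described, with their rod counterparts, listed marker genes and the 5 genes closest in profile, of which the first is named for each member and all 5 for Gngt2. Crx, Tyrobp, Trem2 and genes sharing exons with a member were added after seeing the data. The members and lists were chosen with earlier results of these data known. A rod gene of the planned lists is not reported here, and no rod sum or ratio includes it. Protein identities were planned but not analysed here.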

Additional observations from a re-analysis of the deposited data

How the results depend on the processing

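No member passed an adjusted p of 0.05 under any of the 15 alternatives run, of which the filter at a mean of 100 left out Cngb3. Over all genes limma called 0, against 250 in DESeq2, 2 with the replicate block, and 0 to 17 when 1 library was left out (12 without sham replicate 1 and 17 without sham replicate 3). Same-numbered sham and OHT libraries had correlations of their deviations of 0.08, -0.02 and -0.05, against -0.07 to 0.10 for differently numbered ones. As these spans overlap, the values cannot decide whether same-numbered libraries were handled together. With the replicate block the log2 difference of Gngt2 was 1.62 with a limma adjusted p of 0.0967, and its SE was 0.32 against 0.44 without the block. The direction turned in edgeR and DESeq2 for Arr3 (0.71 and 0.75), Gnat2 (0.08 and 0.16) and Gnb3 (0.14 and 0.20). The limma fit compares means of log2 values, whereas edgeR and DESeq2 model mean counts. Mean normalised counts were higher in OHT than in sham for Arr3 (1398 against 833), Gnat2 (772 against 692) and Gnb3 (2774 against 2425). OHT replicate 3 was the highest library for each, and its part in the turn was not tested. Leaving out 1 library gave -1.64 to 0.54 for Arr3, -0.65 to 0.64 for Gnat2, -0.94 to 0.26 for Gnb3 and -0.40 to 0.85 for Pde6h. The same range was -1.16 to -0.34 for Opn1sw, -2.49 to -0.37 for Opn1mw, -1.94 to -0.53 for Pde6c, 1.26 to 1.99 for Gngt2 and 0.23 to 3.79 for Cngb3. Quantile normalization moved the median of all genes from -0.12 to 0.01 and gave Gngt2 1.29. It turned the r with the microglia list to 0.17 for Opn1sw, 0.04 for Opn1mw, -0.02 for Gnat2 and 0.35 for Pde6c, and lowered it from 0.77 to 0.30 for Gngt2 (adjusted exact permutation p 0.846). Totals that leave out the 20 highest genes are smaller, so the ppm of every member rises by arithmetic. The rise exceeded the SD for Gnat2 (to 23.5 ppm) and Gnb3 (to 82.1 ppm) in sham, Gngt2 in OHT (to 327 ppm) and the sum in cultures (to 3.97 ppm). It did not for Gngt2 in sham, which went from 99.1 to 134 ppm. Without Gngt2 and Gnb3 the summed means were 166, 140.5 and 3.12 ppm in sham, OHT and cultures. At these depths 1 read is worth 0.0130 to 0.0264 ppm, which limits what can be said of Cngb3 in some sorted libraries, of Cnga3, and of Opn1mw and Arr3 in the cultures.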
